A study of Mus musculus with 3 samples.

Results

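Met, Kit, Erbb3, Igf1r, Insr, Fgfr1, Axl, Tyro3, Ddr1 and Pdgfrb encode receptor tyrosine kinases, and their RNA levels were compared in cultured B16 mouse melanoma cells. These 10 genes were chosen by name, and each had a row among the 14293 genes of the deposited table. The 3 groups were the B16 sublines F0, F1 and F10, established lines derived from a melanoma of C57BL/6J mice, each with 1 library of polyadenylated RNA. No treatment or engineered allele is named for any of them, and all were grown in high-glucose DMEM with 8% serum, used within 10 passages of thawing and taken as subconfluent monolayers. F10 was obtained by others through repeated rounds of selection for lung colonies in mice and is known as strongly metastatic. With 1 library per subline there was no replicate spread, no test and no p-value. Subline, culture and library cannot be told apart, and neither can fewer cells expressing a gene and less of its RNA per cell.

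Receptor tyrosine kinases span the plasma membrane, bind a growth factor or a matrix protein outside the cell, and phosphorylate each other on tyrosines inside it. Adaptor proteins dock on those tyrosines and pass the signal to the RAS and PI3-kinase pathways, while ubiquitin ligases, phosphatases and feedback inhibitors limit it. In the melanocyte lineage, Kit and Met respond to stem cell factor and hepatocyte growth factor, and Erbb3 responds to neuregulins. Axl and Tyro3 bind the bridging ligand Gas6, Tyro3 also binds protein S, Ddr1 binds collagen, and Pdgfrb is best known from fibroblasts and pericytes.

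Levels are given in RPKM, which divides reads by transcript length and by library size, so that genes of different length can be set side by side. Differences between libraries are differences of log2(RPKM + 1), and a gene was called 2-fold apart when this difference reached 1 in size. Genes with at least 1 RPKM in at least 1 library were compared (10701 genes). Because of the added 1, such a difference understates the change of a low gene, and the plain RPKM ratio is given beside it. Ratios carry a 95% exact Clopper-Pearson interval from estimated fragments, which covers counting error only. Judged by the steps between low values, 1 RPKM on 1 kb stood for 5.46 fragments (F0), 6.33 (F1) or 5.39 (F10). The melanocyte markers Pmel, Mlana, Tyr, Tyrp1, Dct, Slc45a2 and Gpnmb, 7 of 7, lay between 148 and 3030 RPKM in the 3 libraries.

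The promoter of Met, the member with the highest level, is printed beside that of Axl, a member called apart between F10 and F1. Both are the 250 bases before the gene's start in RefSeq (GRCm38.p6, which is mm10), written 5′ to 3′ on the gene's strand, and capitals mark matches to the motifs listed after them.
Met, chr6:17463707-17463956, plus strand: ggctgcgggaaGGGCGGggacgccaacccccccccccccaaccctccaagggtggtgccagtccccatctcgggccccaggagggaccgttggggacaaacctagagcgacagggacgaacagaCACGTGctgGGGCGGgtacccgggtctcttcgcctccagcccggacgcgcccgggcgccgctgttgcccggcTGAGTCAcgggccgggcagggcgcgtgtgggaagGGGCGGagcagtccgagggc
Axl, chr7:25788734-25788983, minus strand: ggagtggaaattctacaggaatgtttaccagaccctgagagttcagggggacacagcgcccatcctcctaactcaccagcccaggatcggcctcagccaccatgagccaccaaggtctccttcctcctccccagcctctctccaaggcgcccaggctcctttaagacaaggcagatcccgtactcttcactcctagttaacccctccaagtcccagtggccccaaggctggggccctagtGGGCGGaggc

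Both strands were searched for CACGTG and CATGTG, E-box forms bound by MITF, for TGANTCA, the AP-1 site, for GGGCGG, the GC box, and for ACAAAG, a SOX core. In the Met window CACGTG stood at -126 to -121 from the start, TGAGTCA at -54 to -48, and GGGCGG at 3 places. None of these matches overlapped another. The Axl window held GGGCGG at -10 to -5 and none of the other motifs. Among 32536 distinct promoter windows of this length, 6.04% held CACGTG, 12.3% CATGTG, 6.73% TGANTCA, 33.0% GGGCGG and 16.5% ACAAAG. The promoter table held 10 windows of 6 members: 4 of Ddr1, 2 of Kit and 1 each of Met, Igf1r, Axl and Tyro3. Of these 10 windows CACGTG occurred in 1 (Met), CATGTG in 0, TGANTCA in 2 (Met and 1 of Ddr1), GGGCGG in 9 and ACAAAG in 1 (Ddr1). A match describes letters only. In GENCODE M21 the Met gene starts at base 17463800 of chromosome 6, so part of this window lies inside that longer gene model. That part holds the CACGTG, the TGAGTCA and each GGGCGG except the one farthest from the RefSeq start.

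Met, the receptor of hepatocyte growth factor, read 81.2 RPKM (F0), 99.6 (F1) and 192 (F10). The level was highest in F10, and the 95% Poisson counting intervals of the 3 libraries were apart (76.5 to 86.2, 94.7 to 105 and 184 to 199 RPKM). The gene spans 17463800 to 17573980 of chromosome 6 on the plus strand, Axl 25757273 to 25788705 of chromosome 7 on the minus strand, and Ddr1 35681567 to 35704621 of chromosome 17 on the minus strand (GRCm38).
The F10 to F0 ratio was 2.36 (2.20 to 2.53), the F10 to F1 ratio 1.92 (1.81 to 2.05) and the F1 to F0 ratio 1.23 (1.13 to 1.33). Most of the difference between F0 and F10 therefore lay between F1 and F10. On the log2(RPKM + 1) scale the differences were 1.23, 0.94 and 0.29, so that Met passed 2-fold against F0 and fell just short of it against F1. By this difference Met ranked 95 of 10701 from the highest for F10 against F0. In the authors' deposited table, Met had a z score of 6.68 for F10 against F0, rank 37 of 13873 by size, and 1.36 for F1 against F0. That z score equals the RPKM difference over the square root of the RPKM sum, so it favours abundant genes and holds no replicate spread.

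The intervals of Met rest on 1097, 1557 and 2555 estimated fragments in F0, F1 and F10, from the median length of its annotated protein-coding transcripts, 2512 bases. Its longest transcript, 6809 bases, would give 3005, 4263 and 6996 fragments and narrow the F10 to F0 interval to 2.26 to 2.46.

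**Figure D1:**
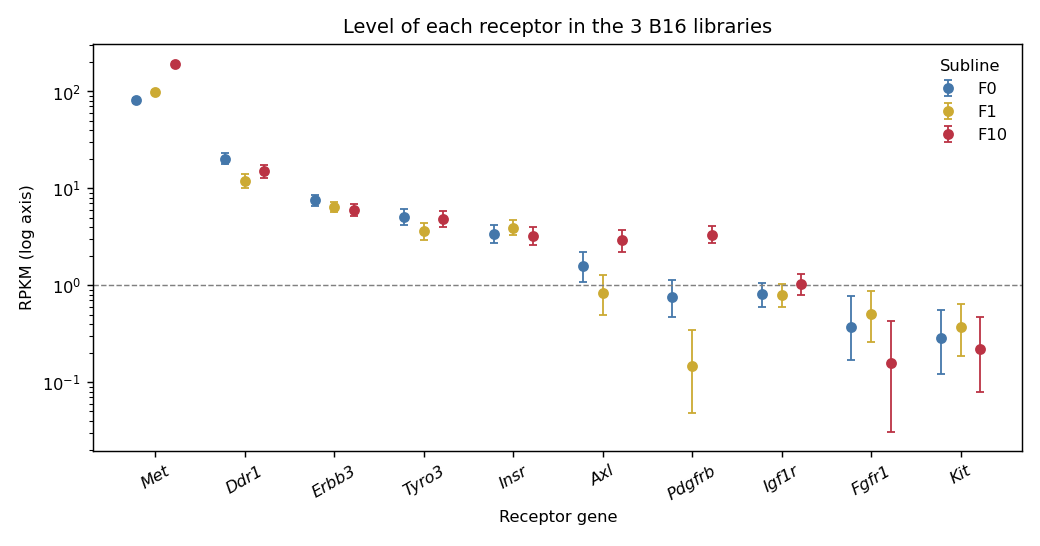
Level of each of the 10 receptors (RPKM, log axis) in the F0, F1 and F10 libraries, 1 point per library with its 95% Poisson counting interval, and a dashed line at 1 RPKM. Met stands above the other receptors in all 3 libraries, Pdgfrb spans 0.148 to 3.34 RPKM, and Kit and Fgfr1 stay below 1.

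Met was also the most abundant receptor tyrosine kinase gene of each library. Of 58 mouse genes listed for the family, 42 had a row and the other 16 were not analysed here. Met ranked 1 of these 42 in every library and held 35.7% (F0), 40.6% (F1) and 55.8% (F10) of their summed RPKM. The gene next in level was Ddr2, a collagen receptor, in all 3, and Met exceeded it 2.68-fold in F0, 2.18-fold in F1 and 6.20-fold in F10. The sum of the other 41 genes was nearly level, at 146 RPKM (F0), 146 (F1) and 152 (F10). Among all genes, Met held rank 777 of 14293 in F0, 577 in F1 and 265 in F10.

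**Figure D2:**
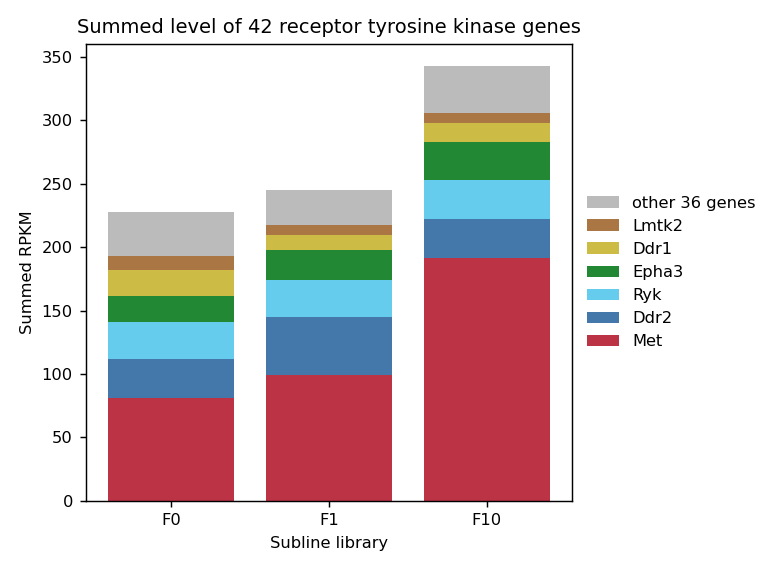
Summed RPKM of the 42 receptor tyrosine kinase genes with a row, stacked by gene, 1 bar per library. Met makes up 81.2 RPKM of the F0 bar and 192 of the F10 bar, while the rest of the stack sums to 146, 146 and 152 RPKM.

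Kit, the stem cell factor receptor on which melanocyte precursors depend, was near the limit of detection. It read 0.288 RPKM (F0), 0.372 (F1) and 0.219 (F10), on 8, 12 and 6 estimated fragments. The libraries could not be ordered, because each counting interval overlapped the others (0.122 to 0.556, 0.189 to 0.639 and 0.0787 to 0.467 RPKM). The F10 to F0 ratio of 0.758 had an interval of 0.217 to 2.50, wide enough to hold a change of 2-fold either way. Kit never reached 1 RPKM and was therefore not among the compared genes.

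Erbb3, the neuregulin receptor whose own kinase activity is weak and which signals through a partner, read 7.51 RPKM (F0), 6.46 (F1) and 5.95 (F10). The values lay close together, with F0 the highest. The F10 to F0 ratio was 0.792 (0.654 to 0.963), while the F1 to F0 ratio of 0.860 (0.717 to 1.03) included 1. Erbb2, the usual partner of Erbb3, read 2.43, 2.41 and 2.75 RPKM, and the interval of each of its ratios included 1.

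Insr and Igf1r, the receptors of insulin and of insulin-like growth factors, showed little movement. Insr read 3.41 RPKM (F0), 3.94 (F1) and 3.26 (F10), and the F10 to F1 ratio of 0.828 had an interval of 0.626 to 1.10. Igf1r read 0.810, 0.790 and 1.02 RPKM on 50, 57 and 63 fragments, with an F10 to F0 ratio of 1.26 (0.866 to 1.89). Both genes' counting intervals included 1 in all 3 pairs. Only the F10 value of Igf1r reached 1 RPKM, so its admission by the filter favoured F10.

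Fgfr1, a fibroblast growth factor receptor, read 0.372 RPKM (F0), 0.505 (F1) and 0.157 (F10), on 8, 12 and 3 estimated fragments. F10 was the lowest library, yet its interval overlapped both others. The F10 to F1 ratio of 0.311 had an interval of 0.0531 to 1.09, and with the longest transcript in place of the median length the interval was 0.0713 to 0.909. Like Kit, Fgfr1 stayed below 1 RPKM throughout.

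Axl, a receptor linked to invasive melanoma states, read 1.59 RPKM (F0), 0.831 (F1) and 2.91 (F10). F1 was the lowest library and F10 the highest. The F10 to F1 ratio was 3.50 (2.09 to 6.16), a difference of 1.09 on the log2(RPKM + 1) scale, and rested on 20 fragments in F1 and 60 in F10. The F10 to F0 ratio was 1.83 (1.18 to 2.91) and the F1 to F0 ratio 0.523 (0.285 to 0.940), neither of them 2-fold on that scale.
Tyro3, a related receptor, was more abundant than Axl in each library, at 5.09 RPKM (F0), 3.62 (F1) and 4.82 (F10). It also had its lowest value in F1, with an F1 to F0 ratio of 0.710 (0.540 to 0.945), whereas the F10 to F0 ratio of 0.946 (0.726 to 1.25) included 1. Mertk, the remaining receptor of this group and a gene outside the 10, read 1.84, 0.586 and 1.01 RPKM. Its F1 to F0 ratio was 0.319 (0.169 to 0.582), and its F10 to F0 ratio 0.549 (0.312 to 0.919). Axl thus made up 18.6% of the summed RPKM of Axl, Tyro3 and Mertk in F0, 16.5% in F1 and 33.3% in F10. Over the same libraries Mertk gave 21.6%, 11.6% and 11.5%. Tyro3 was the largest contributor throughout, at 59.8%, 71.8% and 55.2%.

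Ddr1, a collagen receptor, was second in level to Met among the 10, with 20.3 RPKM (F0), 12.04 (F1) and 15.1 (F10). F0 was the highest library and F1 the lowest, and their counting intervals did not overlap (17.7 to 23.3 and 10.1 to 14.1 RPKM). The F1 to F0 ratio was 0.592 (0.474 to 0.732) and the F10 to F0 ratio 0.740 (0.597 to 0.914), while the interval of the F10 to F1 ratio of 1.25 included 1 (0.993 to 1.59), though not with the longest transcript's length (1.06 to 1.47). Ddr2, the other discoidin receptor, was highest in F1, where Ddr1 was lowest. It read 30.3, 45.7 and 30.9 RPKM. Its F1 to F0 ratio was 1.51 (1.39 to 1.64), and its F10 to F0 ratio of 1.02 (0.932 to 1.12) included 1. The Ddr2 to Ddr1 ratio of levels was therefore 1.49 in F0, 3.80 in F1 and 2.05 in F10.

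Pdgfrb, the receptor of platelet-derived growth factor B, differed more between libraries than any other of the 10. It read 0.758 RPKM (F0), 0.148 (F1) and 3.34 (F10), on 22, 5 and 97 estimated fragments. F10 was the highest library and F1 the lowest, and the 3 counting intervals did not overlap (0.469 to 1.13, 0.0477 to 0.343 and 2.71 to 4.08 RPKM). The F10 to F0 ratio was 4.41 (2.79 to 7.45), the F10 to F1 ratio 22.6 (9.42 to 71.6) and the F1 to F0 ratio 0.195 (0.0581 to 0.531). On the log2(RPKM + 1) scale these were differences of 1.305, 1.92 and -0.61. Its F10 value was the single one above 1 RPKM, so once past the filter it had to lie higher there, and the F10 differences carry that selection.
Markers of other cell types were read beside it, and those of skeletal muscle also stood highest in F10. Of 18 skeletal muscle genes, a list added after these values had been seen, 15 had a row and summed to 18.3 RPKM (F0), 23.5 (F1) and 79.6 (F10). Ckm, the muscle creatine kinase, read 0.527, 1.47 and 6.26 RPKM, and Myh4, a fast myosin heavy chain, 0.632, 0.876 and 4.61. The muscle regulator Myod1 was listed at 0 in F0 and F1 and read 0.102 in F10. Of 10 fibroblast markers 9 had a row, and their sum without the highest, Fbln1, was 4.73 RPKM (F0), 4.71 (F1) and 10.1 (F10) (33.5, 32.3 and 39.2 with it). Among them Lum was listed at 0 in F0 and Fap in F1, while Dcn read 0.396, 0.445 and 2.62 RPKM. Of 9 pericyte and smooth muscle markers 8 had a row, and their sum without the highest, Mcam, was 3.26, 1.43 and 5.91 RPKM (75.3, 66.5 and 46.6 with it). Within it Des, which muscle cells also make, read 2.68, 1.05 and 4.49, Rgs5 and Acta2 were listed at 0 in F0 and in F1, and Abcc9 in F0. The part of the muscle, fibroblast and pericyte markers in the F10 differences of Pdgfrb and Axl was not tested. Leukocyte markers, 4 of 9 with a row, summed to between 3.23 and 3.45 RPKM in the 3 libraries. Endothelial markers, 4 of 7 with a row, were also highest in F10, with sums of 0.374 RPKM (F0), 0.313 (F1) and 1.14 (F10). Of these, Cdh5 and Kdr were listed at 0 in F0, and Pecam1 and Cdh5 in F1. Keratinocyte markers, 2 of 6 with a row, summed to at most 0.2004 RPKM.

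**Figure D3:**
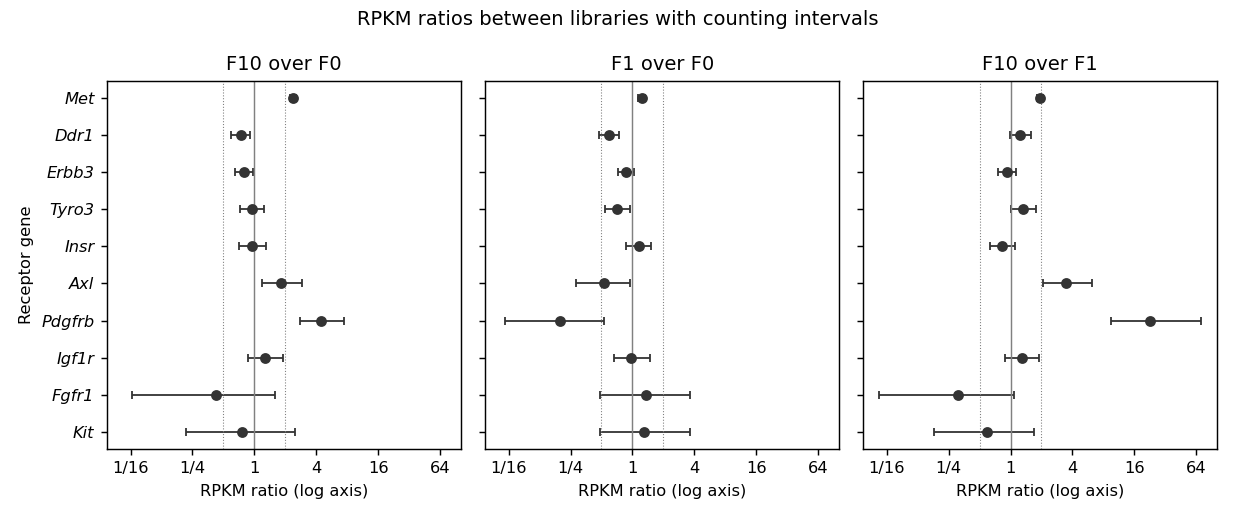
RPKM ratio of each receptor (log axis) for F10 over F0, F1 over F0 and F10 over F1, with 95% Clopper-Pearson counting intervals, a solid line at 1 and dotted lines at 2-fold. Met has narrow intervals above 1 in all 3 panels, Pdgfrb reaches 22.6 for F10 over F1, and the intervals of Kit, Igf1r and Insr cross 1 in each panel.

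The order of the 10 receptors by level was similar in the 3 libraries at its top and less settled below. Met, Ddr1 and Erbb3 came first in each, and the counting intervals of these neighbours did not overlap. In F0 they were followed by Tyro3, Insr, Axl, Igf1r, Pdgfrb, Fgfr1 and Kit, where Tyro3 overlapped Insr and each neighbouring pair from Igf1r to Kit overlapped. In F1 the sequence was Insr, Tyro3, Axl, Igf1r, Fgfr1, Kit and Pdgfrb, with an overlap of Insr and Tyro3 and between each neighbouring pair from Axl to Pdgfrb. In F10 it was Tyro3, Pdgfrb, Insr, Axl, Igf1r, Kit and Fgfr1. Neighbours from Erbb3 down to Axl overlapped there, as did Kit and Fgfr1. Pdgfrb thus stood last in F1, and in F10 between Tyro3 and Insr, whose intervals its own overlapped.

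Counted over the 8 members that passed the filter (all but Kit and Fgfr1), 2 were called at least 2-fold higher in F10 than in F0, Met and Pdgfrb, and none lower. Of all 10701 compared genes, 3.15% were called for this pair, 1.54% higher and 1.61% lower. Against F1, 2 members were called higher in F10, Axl and Pdgfrb, and none lower, where 3.98% of compared genes were called, 2.07% higher and 1.92% lower. Between F1 and F0 no member was called, where 1.99% of compared genes were, 0.972% higher and 1.02% lower. With a pseudocount of 0.1, or with libraries rescaled to the same larger sum, Pdgfrb was called lower in F1. These settings lessen the weight of the added value. With median ratio scaling of the libraries Pdgfrb was not called, at a difference of -0.61. The members were picked with earlier results of these data known, so these counts are a description. Pdgfrb and Igf1r passed the filter through their F10 value alone, so they had to lie higher there. The call of Pdgfrb in each F10 pair, and the member medians and interval counts of those pairs, carry that selection.
The median difference of the 8 members was 0.06 (F10 against F0), -0.30 (F1 against F0) and 0.32 (F10 against F1), where the median of all compared genes was -0.01 in each pair. For F1 against F0, 6 of 8 lay below 0, all but Met and Insr. The counting interval excluded 1 in 5 of the 8 members between F10 and F0 (3 above and 2 below), in 5 between F1 and F0 (1 above and 4 below) and in 4 between F10 and F1 (all above). Among compared genes of known length, 34.0%, 32.9% and 38.3% did so. The 3 pairs share libraries, and their values are not independent.

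**Figure D4:**
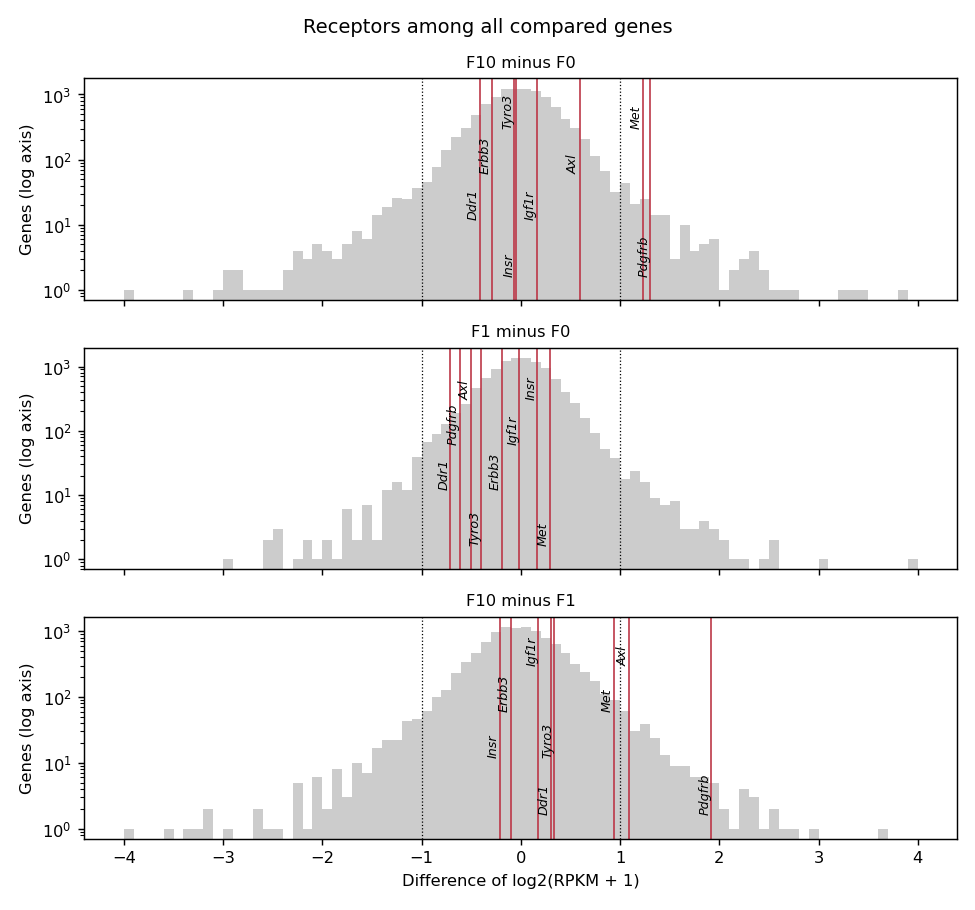
Number of compared genes (log axis) by their difference of log2(RPKM + 1) for each pair of libraries, with red lines at the 8 receptors that passed the filter, each name to the left of its line, and dotted lines at 2-fold. Genes beyond the axis are placed in its end bins. Met and Pdgfrb lie past 2-fold for F10 minus F0, Axl and Pdgfrb for F10 minus F1, and no receptor does for F1 minus F0.

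The wider family gave no further call on this scale, though with a pseudocount of 0.1 or 0.5 Mertk was called lower in F1 than in F0. Of its 42 genes with a row, 17 were compared, and the 9 of them outside the members were at most 0.84 (log2) apart in any pair. Ryk, a Wnt receptor, was nearly level at 29.1, 29.1 and 30.3 RPKM in F0, F1 and F10. Epha3, an ephrin receptor, read 20.8, 23.4 and 30.2 RPKM, with an F10 to F0 ratio of 1.46 (1.25 to 1.69). Lmtk2, a membrane kinase of the lemur family, read 11.7, 7.45 and 8.20 RPKM, highest in F0, with an F10 to F0 ratio of 0.6995 (0.609 to 0.802).
Ephb4, another ephrin receptor, read 5.07, 2.997 and 4.82 RPKM and was lowest in F1, at an F1 to F0 ratio of 0.591 (0.436 to 0.799). Epha7 read 1.21, 1.14 and 1.58 RPKM, and the kinase-inactive Ephb6 read 1.19, 0.938 and 0.351, on 4 fragments in F10. The counting intervals of both genes' ratios included 1 in all pairs. For Ephb6 the longest transcript gave intervals below 1 for F10 to F0 (0.107 to 0.707) and F10 to F1 (0.135 to 0.904). With a pseudocount of 0.1 Ephb6 was called lower in F10 than in either other library, and on the rescaled sums lower than in F0. Only the F0 value of Ephb6 reached 1 RPKM, so once past the filter it had to lie higher there. Its differences from F0 carry that selection. Several receptors prominent in other tumours were listed at 0 in 1 or more libraries. Egfr, Erbb4, Fgfr2, Fgfr4 and Mst1r, the closest relative of Met, were listed at 0 in F0 and in F1, and none of them exceeded 0.105 RPKM in F10.

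The ligands of these receptors were mostly low. Of 35 listed ligand genes 24 had a row and 7 were compared. Hgf, the ligand of Met, was listed at 0.280 RPKM in F0 (4 estimated fragments) and at 0 in F1 and F10. Kitl, the ligand of Kit, read 0.171, 0.235 and 0.553 RPKM on 1, 1 and 3 fragments, and Gas6, a ligand of Axl and Tyro3, at most 0.0719. These 3 were named for the receptors they bind, outside the rule for named genes. Pros1, which encodes protein S, was the most abundant ligand at 9.92, 7.26 and 7.61 RPKM, with an F10 to F0 ratio of 0.767 (0.608 to 0.965).
Fgf1 read 5.06, 2.79 and 3.23 RPKM, and the interval of each of its ratios included 1. With its longest transcript those of F10 to F0 (0.467 to 0.875) and F1 to F0 (0.405 to 0.756) lay below 1. Pdgfa, a platelet-derived growth factor gene, read 3.30, 2.84 and 6.66 RPKM, an F10 to F1 ratio of 2.35 (1.46 to 4.03) and just short of 2-fold on the log2(RPKM + 1) scale. Col4a2, a basement membrane collagen chain and so a possible Ddr1 ligand, read 2.58, 0.724 and 2.73 RPKM. It was called lower in F1 than in F0 and higher in F10 than in F1 (ratio 3.77, 2.48 to 5.98). It was the 1 compared ligand of 7 called in either pair, where 1.99% and 3.98% of all compared genes were. None was called for F10 against F0, where 3.15% of all genes were. With a pseudocount of 0.1 or 0.5 or on the rescaled sums, Col4a1 was also called lower in F1 than in F0. In the same settings Col4a1 and Pdgfa were called higher in F10 than in F1. On the rescaled sums Pdgfa was also called higher in F10 than in F0.

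Genes of receptor partners, processing proteases and shedding enzymes held 15 compared members of 29, with a median difference of -0.05 for F10 against F0. The most abundant were Cd44, a co-receptor of Met (72.3, 65.97 and 58.9 RPKM), Igfbp4, which binds insulin-like growth factors (67.2, 45.3 and 69.2), and Nrp2, a neuropilin (41.1, 36.7 and 45.1). Plau, the urokinase protease that can activate pro-hepatocyte growth factor, was called lower in F10 and in F1 than in F0, the 1 call among 15 genes, where 1.61% and 1.02% of all compared genes were called lower. It read 2.55 RPKM (F0), 0.205 (F1) and 0.402 (F10), on 32, 3 and 5 fragments. The F0 to F10 ratio was 6.33 (2.44 to 20.8) and the F0 to F1 ratio 12.4 (3.86 to 63.0). Only the F0 value of Plau reached 1 RPKM, so once past the filter it had to lie higher there. Both calls carry that selection. With a pseudocount of 0.1 or 0.5 or on the rescaled sums, Spint1 was also called lower in F10 and in F1 than in F0.

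Among adaptors and effectors, which carry the receptors' signal, 21 genes of 26 were compared. None was called in any pair, where 3.15% (F10 against F0), 1.99% (F1 against F0) and 3.98% (F10 against F1) of all compared genes were, a share that comes to less than 1 gene of 21. Between F10 and F0 the counting interval excluded 1 in 34.0% of compared genes of known length. Among these adaptors and effectors it did in 8 of 21, 3 above and 5 below. Their median differences were -0.05 (F10 against F0), 0.06 (F1 against F0) and -0.10 (F10 against F1). With a pseudocount of 0.1 or on the rescaled sums, the adaptor Nck2 was called higher in F10 than in F1. Ptpn11, the phosphatase SHP2, read 37.0, 40.8 and 31.3 RPKM, and Crk, an adaptor in Met signalling, read 29.0, 32.3 and 26.1. Shc1, an adaptor leading to RAS, was highest in F10 at 29.5, 35.4 and 42.5 RPKM, an F10 to F0 ratio of 1.44 (1.23 to 1.69).

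Among 29 compared negative regulators of 37, 1 was called lower against F0 in both other sublines and none otherwise, near the 1.61% (F10) and 1.02% (F1) of all compared genes called lower. This was Ptprb, a receptor tyrosine phosphatase of endothelium, at 3.33 RPKM (F0), 0.0269 (F1) and 0.111 (F10), on 172, 2 and 6 fragments. The F0 to F10 ratio was 30.1 (12.7 to 78.2). Only the F0 value of Ptprb reached 1 RPKM, so once past the filter it had to lie higher there. Both calls carry that selection. Socs3 was called higher in F10 than in F1 with a pseudocount of 0.1 or 0.5 or on the rescaled sums. Dusp4, a phosphatase of MAP kinases, read 26.5, 29.8 and 39.4 RPKM, an F10 to F0 ratio of 1.49 (1.303 to 1.69). Stam2, which sorts ubiquitinated receptors, read 23.7, 27.3 and 22.1 RPKM, and the CBL-associated adaptor Cd2ap read 20.8, 27.1 and 22.9.

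Of 16 transcription factors linked to these receptors or to the melanocyte lineage, 14 were compared, and all 14 lay above their F0 value in F10, by a median of 0.25 against -0.01 for all compared genes, with none 2-fold apart. The counting interval excluded 1 in 4 of the 14, against 34.0% of all compared genes, so at the median transcript length the interval of the other 10 included 1. Mitf, the melanocyte regulator that binds CACGTG and is known to act on Met, read 57.9, 43.9 and 62.8 RPKM. Mitf was lowest in F1, and its F10 to F0 ratio was 1.08 (0.974 to 1.21, or 1.01 to 1.16 with its longest transcript). Its part in the level of Met was not tested. Sox10, a neural crest factor known to act on Erbb3, read 68.9, 59.5 and 89.5 RPKM, an F10 to F0 ratio of 1.298 (1.19 to 1.41). Ets1 read 76.6, 73.4 and 99.2 RPKM, a ratio of 1.296 (1.18 to 1.42).
Etv5, a factor induced by ERK signalling downstream of such receptors, was called lower in F1 than in F0 and higher in F10 than in F1. It read 2.54, 0.587 and 3.99 RPKM, with an F10 to F1 ratio of 6.80 (3.77 to 12.8). Tfeb, a relative of Mitf, was called higher in F10 than in F1, at 4.81 and 1.68 RPKM (ratio 2.87, 1.02 to 10.9), on 13 and 5 fragments, and read 2.76 in F0.

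**Figure D5:**
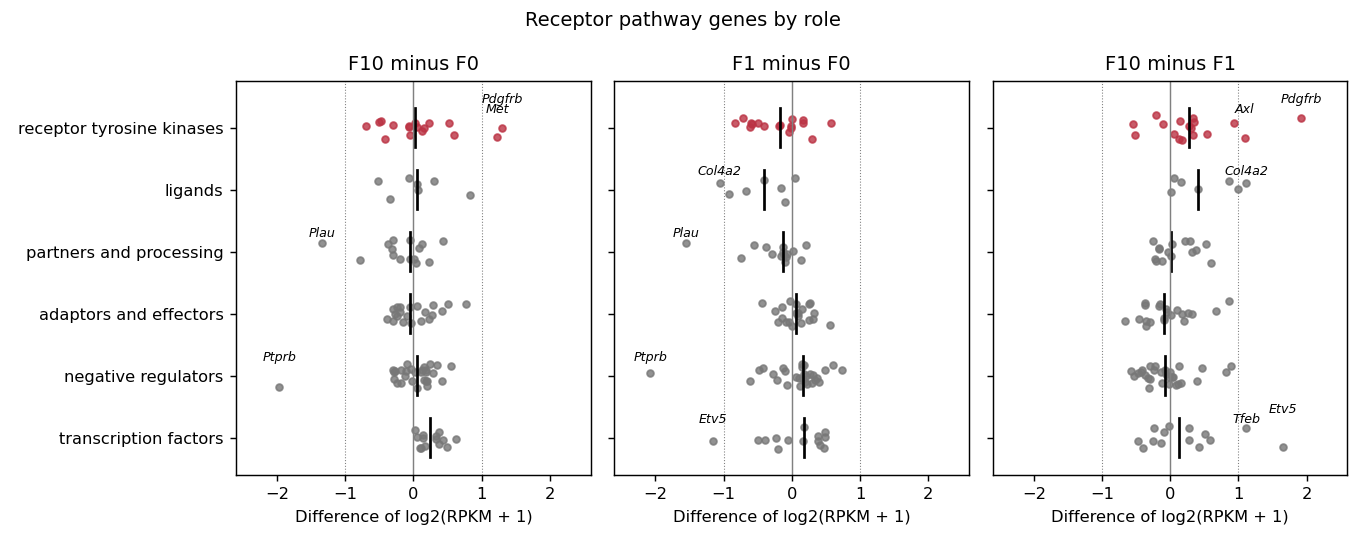
Difference of log2(RPKM + 1) of each compared gene for the 3 pairs of libraries, by role, with receptors in red, a black bar at each list's median, dotted lines at 2-fold and names at genes past it. The adaptors hold no named gene in any panel. Plau and Ptprb, which passed the filter through F0 alone, lie low in both F0 comparisons, and Etv5 lies low in F1.

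The genes whose levels moved most like Met over the 3 libraries were found by the distance between their F1 against F0 and F10 against F0 differences and those of Met, among 5327 genes averaging at least 10 RPKM. The nearest was Rpl36, a ribosomal protein gene, at 151, 186 and 357 RPKM and a distance of 0.0121 (log2). Nckap5l followed at 17.2, 24.0 and 42.9 RPKM and a distance of 0.171. The proton pump subunit gene Atp6v0c read 83.3, 99.96 and 173 RPKM, at a distance of 0.187. Slc2a5, a fructose transporter, and Josd2, a deubiquitinase, lay 0.207 and 0.208 away. Likeness over 3 libraries describes these profiles only.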

How the data were processed

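Per the labels, polyadenylated RNA of 3 B16 sublines was sequenced after stranded library preparation, with 1 library each. Listed without roles in the submitters' processing notes are the build mm10 and the tools Cufflinks, TopHat, Bowtie2 and bcl2fastq, and neither versions nor settings nor annotation are given in the sources used. As one file, the authors deposited 1 table of RPKM values and their z scores, per the file headers. Each z score matched, to 1e-09, the difference of RPKM divided by the root of their sum.

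Of 14313 rows, 20 with a spreadsheet date for a symbol (0.174% of RPKM) were left out. An exact 0 can be a failed estimate, so genes are described as listed at 0. Depth was estimated from 1392 genes with a single transcript of 800 bases or more. There, low RPKM times length (shortened by 40 bases) clustered at a step taken as 1 fragment, and 77.8%, 84.6% and 80.9% of the values near it in F0, F1 and F10 lay within 5% of it. Fragments per gene used the median length of protein-coding transcripts in GENCODE M21, found for 99.1% of genes (527 by a former symbol). Where short models pull that median down, fragments are underestimated and intervals too wide. Intervals and the floor of 3 fragments (0.549, 0.474 and 0.556 RPKM for 1 kb) cover counting error only.

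The members and lists were chosen with earlier results of these data known. Named genes were the members, family genes reaching 1 RPKM, list genes 2-fold apart or among the 3 highest of a list, and the 5 genes most like Met. Python 3.11.15, pandas 2.3.3, numpy 2.4.6, scipy 1.17.1 and matplotlib 3.10.9 were used. The code for fold calls and intervals was run on simulated Poisson counts, with changes planted only in genes averaging more than Axl or Pdgfrb. Such counts hold counting error only, as the intervals assume, so the run checked the code and not these results. Alternatives were other pseudocounts, filters, scalings, fold thresholds and transcript lengths.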

Additional observations from a re-analysis of the deposited data

How the results depend on the processing

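No paired analysis was possible because each subline has 1 library. Of 10 members in 3 pairs (30 differences), 2 changed sign, both on the TPM scale, Insr for F10 against F0 and Igf1r for F1 against F0, each close to 0, and no called difference was reversed. With a filter at 5 RPKM, which keeps 4 members, calls fell to 1 member (Met) for F10 against F0 and to 0 for F10 against F1. The family count likewise fell to 1 and 0, and the joined pathway lists fell from 2, 4 and 3 genes to 0 in each pair. At a 4-fold threshold on the log2(RPKM + 1) scale no member was called (0 for F10 against F0 and 0 for F10 against F1). The plain RPKM ratios of Pdgfrb were 4.41 (F10 over F0), 22.6 (F10 over F1) and 0.195 (F1 over F0). The added 1 shrinks changes at such low levels. At 1.5-fold, 2 members were called for F1 against F0, Ddr1 and Pdgfrb, lower in F1. The TPM scale rescales each library to the same sum, larger than its RPKM sum, so the added 1 weighs less. With a pseudocount of 0.1, and likewise on the TPM scale, 1 member (Pdgfrb) and 2 family genes (Mertk and Pdgfrb) were called for F1 against F0. With 0.5, 1 family gene (Mertk) was. Pathway calls for F10 against F1 rose from 3 to 7 with 0.1, 6 with 0.5 and 7 on the TPM scale. Col4a1, Pdgfa and Socs3 were added in each of these settings, and Nck2 with 0.1 and on the TPM scale. For F1 against F0 they rose from 4 to 6 in each of these settings, with Col4a1 and Spint1 added. For F10 against F0 they rose from 2 to 3 with 0.1 or 0.5 (Spint1) and to 4 on the TPM scale (Spint1 and Pdgfa). The Pdgfrb difference for F10 against F1 grew from 1.92 to 3.79 with a pseudocount of 0.1, because the added value weighs on its 0.148 RPKM in F1. Levels of Kit, Fgfr1 and most ligands are limited by depth, at 12 or fewer fragments per library for both receptors.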

Other observations

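Dusp6 and Spry2, induced by ERK signalling and chosen after their values were seen, had their lowest level in F1, as did Axl, Tyro3, Ddr1 and Pdgfrb. Among the other members Igf1r was also lowest in F1, Met in F0, and Erbb3, Insr, Kit and Fgfr1 in F10. Of these other members, only Met and Erbb3 had a ratio whose interval excluded 1 at the median transcript length. Dusp6, a feedback phosphatase of ERK, read 22.9 RPKM (F0), 14.7 (F1) and 28.3 (F10), with an F10 to F1 ratio of 1.92 (95% counting interval 1.62 to 2.26). Spry2, a feedback inhibitor of receptor signalling, read 6.08, 4.30 and 6.32 RPKM, a ratio of 1.47 (1.02 to 2.12). Spry1, a related inhibitor, was highest in F1, with 3.74, 5.67 and 4.39 RPKM, and Spry4 read 0.650, 0.734 and 0.657. Dusp4, of the same list of negative regulators, was lowest in F0, at 26.5, 29.8 and 39.4 RPKM. Of the 29 compared genes of that list, 20 lay higher in F1 than in F0. The list's median difference was 0.16, against -0.01 for all compared genes. A link between these levels and those of the receptors was not tested.

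Among receptors below 1 RPKM, Ntrk3, a neurotrophin receptor, read 0.174, 0.556 and 0.0492 RPKM in F0, F1 and F10, on 3, 9 and 1 estimated fragments. Epha4 read 0.0589, 0.532 and 0.387 RPKM on 1, 7 and 4 fragments. Ptk7, a receptor without kinase activity, was listed at 0 in F0 and read 0.113 and 0.399 RPKM in F1 and F10, on 3 and 9 fragments.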
